A study of Homo sapiens with 40 samples.

Results

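The proteasome subunit genes of HEK293A cells, a human embryonic kidney line, were followed in a wild-type line (WT) and in a PARP1 knockout (PARP1-KO), each left untreated or treated with 4 agents or mixtures. Members were the protein-coding genes of the count table whose symbol starts with PSMA, PSMB, PSMC, PSMD, PSME, PSMF or PSMG, which gave 50 genes of the 19773 protein-coding genes. They fell into 8 genes of the 20S alpha ring, 7 of the constitutive 20S beta ring, 4 inducible or tissue-specific beta subunits, 6 ATPases and 11 non-ATPase subunits of the 19S cap, 6 activators or inhibitors with their partners, 7 assembly factors, and PSMC3IP. PSMC3IP, whose product is a partner in meiotic recombination, carries the prefix without being a proteasome subunit. PSMA8, a testis alpha subunit, had no counts, and PSMB11, the thymic beta subunit, had 1 count, so 48 members were tested.

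Poly(A) RNA of 40 libraries was sequenced, 4 for each of the 10 groups. In each genotype the groups were no treatment, 0.1% DMSO, topotecan (Tpc, a topoisomerase I poison) with 0.1% DMSO, 5 µM OL9-119 in 0.1% DMSO, and Tpc together with 5 µM OL9-119, for which no DMSO share is given. OL9-119 is the study's code for a tyrosyl-DNA phosphodiesterase 1 inhibitor. Tpc was used at 100 nM in WT and at 50 nM in PARP1-KO cells, and all treatments lasted 5 to 5.5 h. The knockout is 1 CRISPR/Cas9 clone, so that the loss of PARP1 and other traits of the clone cannot be told apart. The sources name the 4 libraries of a group both biological and technical replicates, and since nothing places them in separate cultures, p-values measure the spread between these libraries.

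The proteasome is the main protease of the cytosol and nucleus. Its 20S core is a barrel in which rings of alpha subunits gate the entrance and rings of beta subunits hold the catalytic sites. The 19S cap binds ubiquitin chains, removes them, and unfolds and threads the substrate with a ring of ATPases. Other activators, such as the 11S complex, can dock on the same barrel, and inducible beta subunits replace the catalytic ones in the immunoproteasome, which favours peptides for antigen presentation. Dedicated chaperones assemble the core and the base of the cap, and the transcription factor NFE2L1 can raise the genes together through antioxidant-like elements in their promoters.

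Library totals ranged from 3455043 to 14398670 counts in WT, with a median of 9258040, and from 6436740 to 20379777 in PARP1-KO, with a median of 11407498. PARP1 itself stood at 4.33% to 5.25% of its WT level in the 5 treatments (exact two-sided permutation test over 70 divisions, p = 0.02857 each, the smallest possible). WT libraries varied more than PARP1-KO libraries. The 100 most abundant genes took 16.7% to 24.5% of a WT library and 17.3% to 18.5% of a PARP1-KO library, and mitochondrial genes took 4.73% to 8.25% and 3.73% to 4.97%. The 6 markers of the HEK293 line were LIN28B, PAX2, EYA1, NEFM, NEFL and VIM. Their summed level was 792 to 1082 CPM (read counts scaled to library size by TMM) in WT and 1182 to 1344 CPM in PARP1-KO. Most of this was VIM (471 to 970 CPM over all libraries) and NEFL (228 to 364 CPM). PAX2, EYA1 and NEFM fell to 0.1, 2.7 and 3.4 CPM in their lowest libraries. The sum of 7 markers of other cell types was 16.3 to 48.7 CPM in WT and 11.6 to 20.9 CPM in PARP1-KO, mostly COL1A1, while CD3E, ALB, PECAM1, MYOD1 and PTPRC reached 0. Fewer cells of a kind and less RNA per cell cannot be told apart in such bulk samples.

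The members differed widely in level. Per kilobase of transcript, the highest WT levels with DMSO belonged to PSMB1 (314 CPM per kb), PSMC3 (278 CPM per kb) and PSMA7 (254 CPM per kb), which encode a beta ring subunit, a 19S ATPase and an alpha ring subunit. In PARP1-KO cells with DMSO the order began with PSMB4 (179 CPM per kb), followed by PSMB1 (163 CPM per kb) and PSMB7 (160 CPM per kb). The 3 detected inducible subunits were near the bottom in both genotypes. PSMA2, PSMA6, PSMB8, PSMB9, PSMB10, PSMD5 and PSMD9 had at most 2429 counts each over the 40 libraries. PSMA1 (26.7% of its exon length), PSMA2 (17.2%), PSMA6 (14.1%), PSMB10 (39.4%) and PSMD9 (14.9%) share sequence with other genes annotated on the same strand. PSMC1 (76.1%), PSMD7 (31.2%) and PSMC3IP (30.1%) share it with genes on the opposite strand. The counts of these genes, PSMA1 among them, are therefore uncertain. PSMC1 also has 13 annotated pseudogenes.

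PARP1-KO cells with DMSO had lower transcript levels of many core and cap subunits than WT cells with DMSO. Of the 48 members tested, 22 were lower and 2 higher at an adjusted p under 0.01 (edgeR's quasi-likelihood test with Benjamini-Hochberg adjustment), or 50% called, against 12.4% of all 28922 genes tested. Counting only lower genes, the shares were 45.83% of the members and 5.75% of all genes. The median log2 fold change of the members was -0.37, and 37 of them lay below 0. The median over all genes was 0.19, and 0.02 over the 10523 genes with a mean of at least 10 CPM. With offsets for transcript length and GC content, 31 members were lower and 0 higher, and the members' median was -0.61. The share of lower genes among all calls moved from 46.27% to 72.65% and the all-gene median from 0.19 to 0. The offsets follow the length and GC content of each gene, so they do not move all genes alike. DESeq2 called 25 members in place of 24. Leaving out the third PARP1-KO library with DMSO reduced the count to 14, all lower. Fitting only these 2 groups reduced it to 12, all lower, and the calls over all genes fell to 761 higher and 875 lower of 22409 tested. The calls of 11 members (PSMA1, PSMA3, PSMA4, PSMA7, PSMB1, PSMC2, PSMC3, PSMD1, PSMD2, PSME1 and PSME2) passed in all 17 alternatives.

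**Figure D1:**
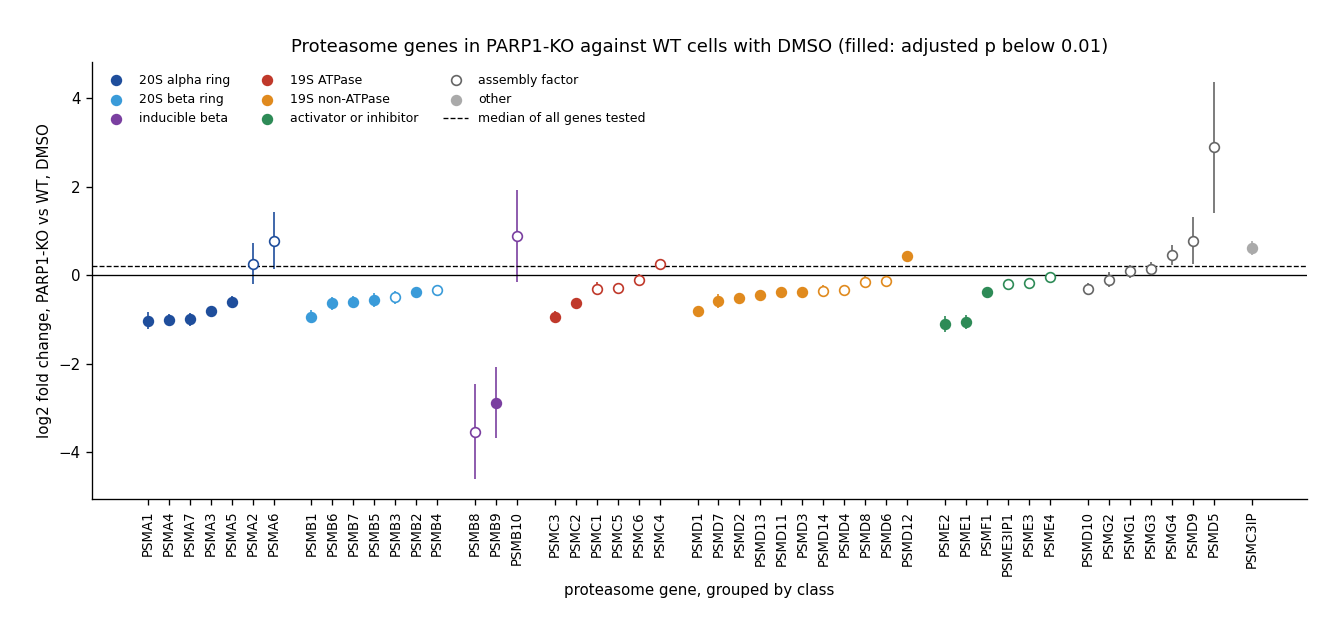
Log2 fold change of each of the tested members in PARP1-KO against WT cells with DMSO, grouped by class, with its standard error as a vertical line and the median of all genes tested as a dashed line. Filled points passed an adjusted p of 0.01 in edgeR's quasi-likelihood test. The alpha and beta rings lie mostly below 0, the assembly factors around it, and PSMD12 and PSMC3IP are the filled points above it, PSMD12 at 0.42 here and at -0.07 with length and GC offsets.

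The alpha ring had the lowest median of the well-measured classes. Of its 7 tested genes 5 were lower, with a class median log2 fold change of -0.81, and its summed level was 644 ± 133 CPM per kb in WT and 345 ± 13.2 CPM per kb in PARP1-KO cells (mean ± SD, n = 4 each). PSMA4, which encodes the alpha subunit α3, was at 489, 459, 660.5 and 402.5 CPM in the 4 WT libraries and at 232, 238, 270 and 252 CPM in the 4 PARP1-KO libraries. Every WT library was above every PARP1-KO library. The log2 fold change was -1.02 ± 0.13 (SE), with an adjusted p of 2.258e-08. PSMA1, the gene of α6, was expressed at a lower level, 48.1, 38.93, 82.8 and 50.1 CPM in WT against 22.8, 33.1, 26.04 and 25.1 CPM in PARP1-KO. These groups did not overlap either (the count is one of those that share sequence with another gene), although the third WT library stood well above the others, and the log2 fold change was -1.03 ± 0.19 (adjusted p = 4.024e-05). PSMA7 (-1.003 ± 0.14) and PSMA3 (-0.81 ± 0.11) changed to a similar degree. PSMA5 was the least changed called gene of the ring, at 144, 150, 215 and 123.5 CPM in WT and 107.5, 102.2, 101.9 and 106 CPM in PARP1-KO. Its log2 fold change was -0.60 ± 0.13 (adjusted p = 0.000454), and the call did not pass in 2 of the 17 alternatives. PSMA2 and PSMA6, which have few counts, were not called and had fitted log2 fold changes of 0.26 and 0.78.

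In the beta ring, 5 of 7 genes were lower, and the class sum was 1226 ± 275 CPM per kb in WT and 807 ± 51.9 CPM per kb in PARP1-KO. PSMB1, a subunit without a catalytic site, was at 279, 244.5, 409 and 186 CPM in WT and at 148, 139, 152 and 143 CPM in PARP1-KO, a log2 fold change of -0.94 ± 0.14 (adjusted p = 7.795e-07). PSMB2, also without a catalytic site, was the least changed called gene, at 299, 256, 241 and 228 CPM in WT and 209, 203, 167 and 202 CPM in PARP1-KO. Its log2 fold change was -0.39 ± 0.10 (adjusted p = 0.003573), with no overlap between the groups. PSMB3 (-0.50, adjusted p = 0.01133) and PSMB4 (-0.35) were not called.

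The 3 catalytic genes of the beta ring were all lower. PSMB6, the caspase-like subunit β1, was at 112.6, 95.9, 117.3 and 100 CPM in WT and at 75.3, 75.2, 53.0 and 70.5 CPM in PARP1-KO (log2 fold change -0.64 ± 0.15, adjusted p = 0.0009353). PSMB7, the trypsin-like subunit β2, was at 254, 184, 331 and 187 CPM in WT and at 154.5, 164, 146 and 164 CPM in PARP1-KO (-0.61 ± 0.14, adjusted p = 0.001017). PSMB5, the chymotrypsin-like subunit β5, was at 76.7, 70.4, 119 and 83.8 CPM in WT and at 54.97, 66.7, 47.4 and 67.4 CPM in PARP1-KO (-0.56 ± 0.16, adjusted p = 0.007609). None of the 3 overlapped between the genotypes, yet the lowest WT and the highest PARP1-KO values of PSMB5 were close. Without the third WT library with DMSO, PSMB5 had an adjusted p of 0.09825 and PSMB7 one of 0.02832. Without the third PARP1-KO library, PSMB6 had one of 0.01312.

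Their counterparts in the immunoproteasome were scarce. With DMSO the mean level of PSMB9, which replaces PSMB6, was 5.95 CPM per kb in WT and 0.82 CPM per kb in PARP1-KO, against 129 and 83.1 CPM per kb for PSMB6. PSMB9 was at 6.40, 0.84, 14.1 and 2.82 CPM in the WT libraries and at 1.64, 0.22, 0.88 and 0.60 CPM in the PARP1-KO libraries. The WT libraries varied widely and overlapped the PARP1-KO range, with a log2 fold change of -2.88 ± 0.80 (adjusted p = 0.005912). This call did not pass in 8 of the 17 alternatives. PSMB8, the counterpart of PSMB5, was at 0.64, 3.59, 4.68 and 3.29 CPM in WT and at 0.10, 0.65, 0.10 and 0.08 CPM in PARP1-KO. It missed the threshold (log2 fold change -3.54 ± 1.08, adjusted p = 0.0129) and the lowest WT library lay just below the highest PARP1-KO library. PSMB10, the counterpart of PSMB7, lay at 0.60 CPM or less in WT and between 0.51 and 1.18 CPM in PARP1-KO, and no fold is given for so few counts.

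**Figure D2:**
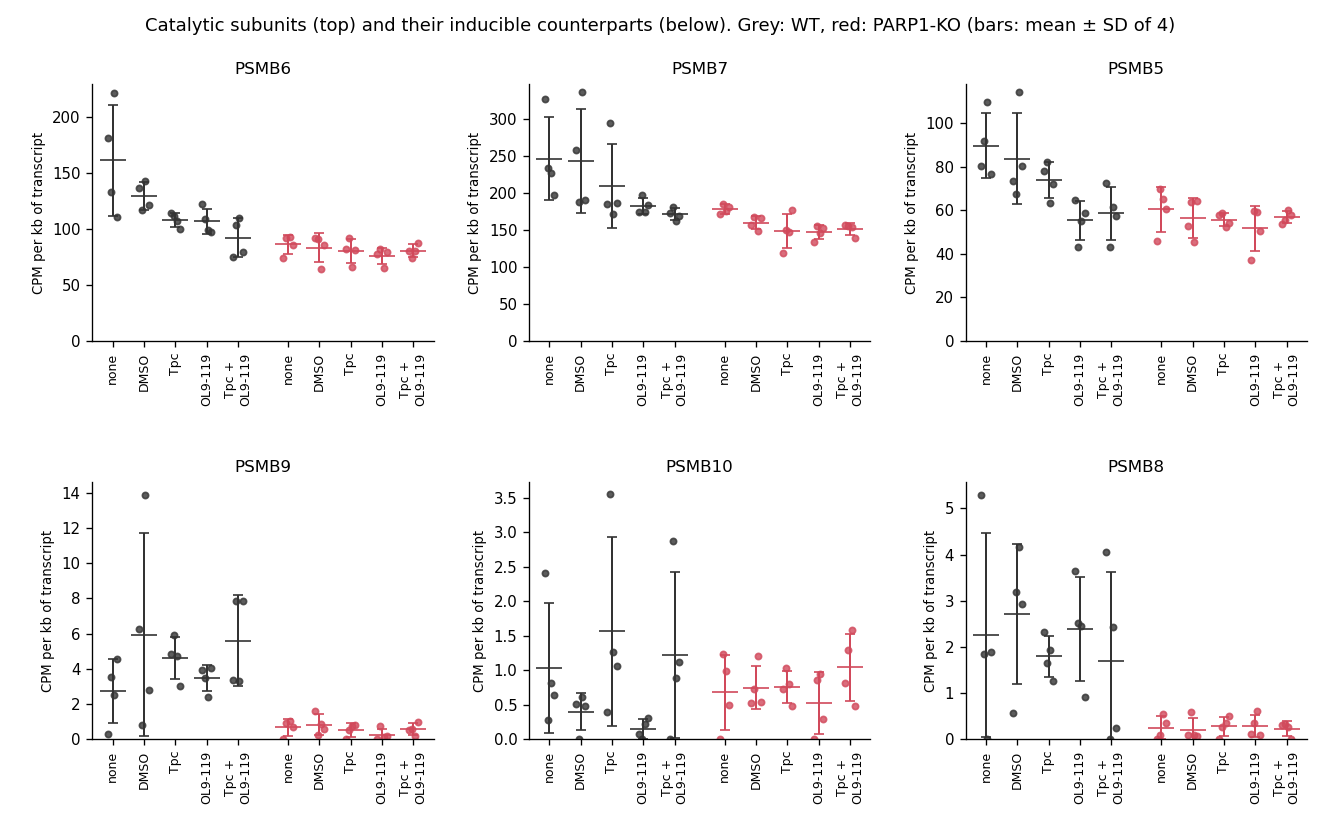
Level per kilobase of the constitutive catalytic subunits PSMB5, PSMB6 and PSMB7 and of their immunoproteasome counterparts PSMB8, PSMB9 and PSMB10 in every library of the 10 groups, with mean and SD bars that are cut at 0 and a linear axis of its own for each gene. With DMSO the constitutive subunits average 56.6 to 243 CPM per kb and the inducible ones 0.21 to 5.95 CPM per kb.

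Some genes of antigen presentation were read beside the inducible subunits. TAP1, a peptide transporter gene that neighbours PSMB9 on chromosome 6, was lower by a log2 fold change of -1.11 ± 0.17 (adjusted p = 1.343e-06). TAP2, its partner gene next to PSMB8, was at -0.17 and was not called. TAPBP (-1.35), the gene of the peptide-loading factor tapasin, and B2M (-0.52), the gene of the class I light chain, were also lower.

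In the 19S cap the ATPase ring was split. PSMC3 and PSMC2 were lower, and the other 4 ATPase genes were not called. PSMC3, the gene of RPT5, was at 435, 328, 596 and 355 CPM in WT and at 213, 223, 226 and 229 CPM in PARP1-KO. Every WT library lay above every PARP1-KO library, and the log2 fold change was -0.94 ± 0.13 (adjusted p = 5.643e-08). PSMC2, the gene of RPT1, was at 278, 315, 252 and 236 CPM in WT and at 165, 168.5, 179.5 and 186 CPM in PARP1-KO, again without overlap (-0.63 ± 0.11, adjusted p = 9.742e-06). PSMC1 (-0.31), PSMC5 (-0.29), PSMC6 (-0.12) and PSMC4 (0.25) spanned both signs.

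Of the 11 non-ATPase subunits 6 were lower and 1 higher. PSMD1, the large scaffold RPN2, was at 307, 386, 354 and 309 CPM in WT and at 199, 193, 173 and 206 CPM in PARP1-KO. The gap between the groups was wider than the spread within either, and the log2 fold change was -0.82 ± 0.11 (adjusted p = 7.906e-08). PSMD7, the gene of RPN8, the partner of the deubiquitinase subunit, was at 253.5, 231, 416 and 175 CPM in WT and at 157, 154, 227.5 and 174 CPM in PARP1-KO. Here the groups overlapped, and the call (-0.59 ± 0.16, adjusted p = 0.005351) gave way to an adjusted p of 0.1661 without the third WT library. PSMD3, the lid scaffold RPN3, changed least of the called genes, from 347, 281, 324 and 327 CPM to 259, 246, 225 and 246 CPM (-0.39 ± 0.10, adjusted p = 0.00393), and missed the threshold in 5 of 17 alternatives, one of which left out the third PARP1-KO library. PSMD2 (-0.52), PSMD13 (-0.45) and PSMD11 (-0.39) made up the rest. The PSMD11 call did not pass in 8 of 17 alternatives and the PSMD13 call in 3, while the PSMD2 call passed in all 17. PSMD14, the deubiquitinase RPN11 (-0.36), and PSMD4, a ubiquitin receptor (-0.34), were not called.

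PSMD12 went against its class. This gene of the lid subunit RPN5 was at 210, 226, 219 and 191.5 CPM in WT and at 264, 262, 336.5 and 272 CPM in PARP1-KO. All PARP1-KO libraries were above all WT libraries, with a log2 fold change of 0.42 ± 0.11 (adjusted p = 0.00308), which became -0.07 with length and GC offsets. Without the third PARP1-KO library, the highest of the 8, the call did not pass.

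**Figure D3:**
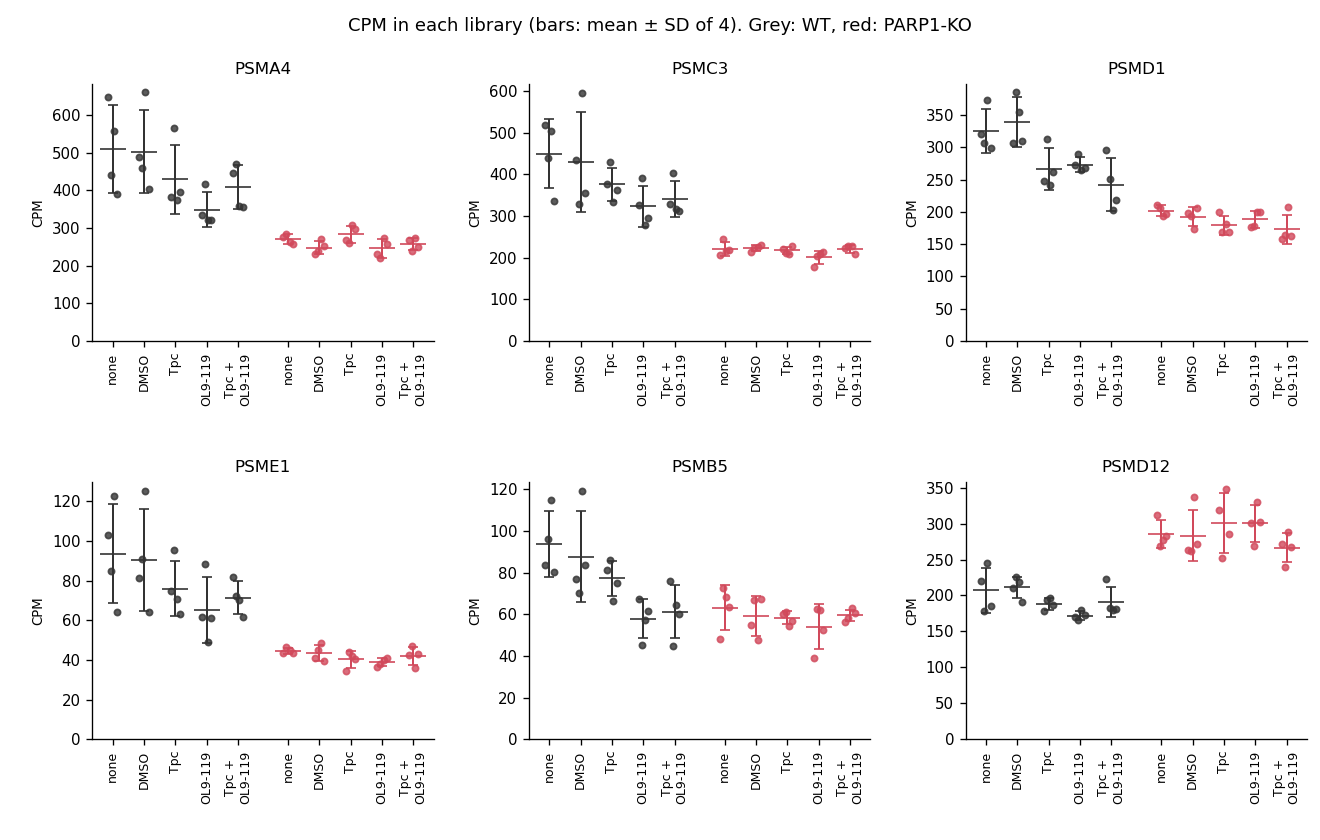
Level in CPM of PSMA4, PSMC3, PSMD1, PSME1, PSMB5 and PSMD12 in each of the 40 libraries, by group, with mean and SD bars. With DMSO, PSMC3 sits at 213 to 229 CPM in PARP1-KO and at 328 to 596 CPM in WT, while PSMD12 sits at 262 to 336.5 CPM and 191.5 to 226 CPM, a difference that does not keep its sign with length and GC offsets.

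Among the activators, both genes of the interferon-inducible 11S complex were lower. PSME1, encoding PA28α, was at 81.5, 90.9, 125.1 and 64.2 CPM in WT and at 41.0, 44.8, 48.3 and 39.6 CPM in PARP1-KO, a log2 fold change of -1.06 ± 0.17 (adjusted p = 1.483e-06). PSME2, encoding its partner PA28β, was at 48.5, 52.8, 80.0 and 33.03 CPM in WT and at 27.8, 25.3, 25.6 and 21.1 CPM in PARP1-KO (-1.10 ± 0.18, adjusted p = 4.528e-06). Neither gene overlapped between the genotypes. PSME3, the nuclear PA28γ (-0.18), its partner PSME3IP1 (-0.20) and PSME4, encoding PA200 (-0.04), were not called. PSMF1, the inhibitor PI31, was at 186, 202, 203 and 193 CPM in WT and at 149.5, 158, 134 and 160 CPM in PARP1-KO (-0.38 ± 0.10, adjusted p = 0.003694), a call that did not pass in 4 of 17 alternatives, one of them without the third PARP1-KO library. The summed level of the class was 317.5 ± 48.6 CPM per kb in WT and 213 ± 4.53 CPM per kb in PARP1-KO.

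None of the 7 assembly factors among the members was called in PARP1-KO against WT cells with DMSO. POMP and PAAF1, assembly genes outside the symbol prefixes, were lower and are given further below. The summed level of the 7 genes was 204 ± 19.1 CPM per kb in WT and 199 ± 3.65 CPM per kb in PARP1-KO, a difference smaller than the WT spread. PSMG1 (0.08), PSMG2 (-0.10), PSMG3 (0.13) and PSMG4 (0.45), the core chaperones, and PSMD10, the base chaperone gankyrin (-0.31, adjusted p = 0.06546), all missed the threshold. PSMD10 was called lower without the 3 libraries whose 100 most abundant genes took over 22% of the counts. That alternative was chosen after the data were seen. PSMD5 averaged 0.08 CPM in WT and 0.53 CPM in PARP1-KO, too few counts for a fold. PSMC3IP was at 51.7, 56.3, 78.5 and 43.5 CPM in WT and at 78.7, 85.6, 106 and 82.1 CPM in PARP1-KO. All 4 PARP1-KO libraries lay above the WT range, the lowest of them only just (log2 fold change 0.61 ± 0.15, adjusted p = 0.001787), and the call did not pass in 5 of 17 alternatives, among them the one without the third PARP1-KO library.

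The promoters of a few members are shown as the sequence context of these opposite results. Of the 50 members, 44 had a window in the RefSeq promoter table (GRCh38.p14), and the 250 bases before the start were searched on both strands for TGACNNNGC, a core like that of antioxidant elements, CCAAT, the box bound by NF-Y, and CCGGAAG, an ETS core. Capitals mark the matches. PSMC3 and PSME1 were lower in all 5 conditions, PSME2 is the partner of PSME1, and PSMD12 was higher. Their windows are chr11:47426440-47426689 (minus strand) for PSMC3, chr14:24135944-24136193 (plus strand) for PSME1, chr14:24146611-24146860 (minus strand) for PSME2 and chr17:67366578-67366827 (minus strand) for PSMD12.
PSMC3: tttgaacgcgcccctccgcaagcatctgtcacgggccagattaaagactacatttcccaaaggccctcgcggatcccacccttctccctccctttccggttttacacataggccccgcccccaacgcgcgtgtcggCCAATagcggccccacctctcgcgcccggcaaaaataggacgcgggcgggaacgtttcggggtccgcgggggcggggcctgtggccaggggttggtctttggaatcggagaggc
PSME1: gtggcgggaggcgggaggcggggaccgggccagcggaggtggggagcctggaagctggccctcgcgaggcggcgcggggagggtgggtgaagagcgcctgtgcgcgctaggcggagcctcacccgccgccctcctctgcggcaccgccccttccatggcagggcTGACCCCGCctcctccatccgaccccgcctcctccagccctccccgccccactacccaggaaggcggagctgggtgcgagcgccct
PSME2: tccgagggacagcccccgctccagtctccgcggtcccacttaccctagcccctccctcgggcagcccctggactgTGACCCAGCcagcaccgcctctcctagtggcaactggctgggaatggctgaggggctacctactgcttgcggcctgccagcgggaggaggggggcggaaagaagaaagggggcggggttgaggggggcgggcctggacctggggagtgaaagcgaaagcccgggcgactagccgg
PSMD12: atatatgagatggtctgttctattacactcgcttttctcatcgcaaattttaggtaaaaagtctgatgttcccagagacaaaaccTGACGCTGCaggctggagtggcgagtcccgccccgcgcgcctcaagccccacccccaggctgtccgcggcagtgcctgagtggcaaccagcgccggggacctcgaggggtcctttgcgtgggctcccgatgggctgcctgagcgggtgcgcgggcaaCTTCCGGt
PSME1 and PSME2 each held TGACNNNGC once, with its first base at -86 and -175 from the start, and PSMD12 held it at -165 together with an ETS core close to the start. PSMC3 held a CCAAT box only. TGACNNNGC was present in 11 of the 44 member windows (25%) and in 11.03% of the 27305 windows in the table. Members called lower with DMSO held it in 4 of 18 windows and tested members not called lower in 7 of 24. CCAAT was present in 20 of 44 member windows, or 45.45%, against 33.04% of all, and CCGGAAG in 10 of 44, or 22.73%, against 8.815%. CCGGAAG was in 2 of the 18 windows of lower members and in 7 of the 24 others.

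The same contrast was made in the other 4 treatments, each against its own WT group, and direction and main genes recurred while the number of calls became smaller. Untreated PARP1-KO cells had 19 members lower and 1 higher, with 11.7% of all genes called and 5.74% called lower. With Tpc the counts were 11 and 2 (8.52% and 4.34% of all genes), with OL9-119 12 and 1 (9.77% and 4.83%), and with Tpc plus OL9-119 8 and 3 (7.27% and 3.71%). The members' median log2 fold change was -0.38 untreated, -0.22 with Tpc, -0.13 with OL9-119 and -0.11 with both, beside all-gene medians of 0.17, 0.07, 0.04 and 0.14. With length and GC offsets these counts of lower and higher members became 23 and 0, 11 and 0, 10 and 1, and 12 and 1, while the share of lower genes among all calls moved from 49% to 70.61% untreated and from 50.97% to 72.27% with both agents. Leaving out the first PARP1-KO library with OL9-119 reduced the 13 calls there to 8. Under Tpc the genotypes also differ in dose, which cannot be told apart from genotype.

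Called lower in all 5 treatments were 7 members, PSMA1, PSMA4 and PSMA7 of the alpha ring, PSMC2 and PSMC3 of the ATPase ring, PSMD1 of the base, and PSME1. PSMC3 had its largest fold without treatment, at 518.5, 438, 504.5 and 337 CPM in WT and 205, 244, 215 and 219 CPM in PARP1-KO (log2 fold change -1.02 ± 0.13, adjusted p = 8.14e-09). With both agents it was at 329, 403, 316 and 312 CPM in WT and at 222, 229, 227 and 207.5 CPM in PARP1-KO (-0.62 ± 0.13, adjusted p = 0.00033). The PARP1-KO values stayed within 178 to 244 CPM over all 20 libraries, and the WT values reached from 279 to 596 CPM. PSMA3, PSMB9, PSMD2 and PSMD3 were lower in 4 of 5 treatments and PSMD13 in 3. PSMB1, PSMB2, PSMB5, PSMB6, PSMD7 and PSME2 were lower in 2, namely untreated and with DMSO. No gene of the constitutive beta ring was called under Tpc, OL9-119 or both, where the class medians were -0.41, -0.31 and -0.12. The untreated group added PSMB3 (-0.74) and PSMD14 (-0.47). Without the 3 libraries in which the 100 most abundant genes took over 22% of the counts, 2 of them untreated WT libraries, a choice made after the data were seen, the untreated calls of PSMB1, PSMB2, PSMB3, PSMB5, PSMB6, PSMD7, PSMD13, PSMD14 and PSME2 did not pass, which left no call in the beta ring. Their adjusted p in that fit reached 0.7818, for PSMD14. Over all 17 alternatives, the untreated call of PSMD3 did not pass in 11, of PSMB2 in 10, of PSMB5 and PSMD14 in 8, of PSMD7 in 7 and of PSME2 in 6. With OL9-119, the PSMD13 call did not pass in 11 of 16 alternatives and the PSMA3 call in 6.

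PSMD12 was higher in all 5 treatments, at 0.46 ± 0.11 untreated, 0.68 ± 0.11 with Tpc, 0.81 ± 0.11 with OL9-119 and 0.48 ± 0.11 with both, although with length and GC offsets it missed the threshold in 4 of the 5 and turned sign with DMSO. With OL9-119 it was at 170, 165, 180 and 172 CPM in WT and 301, 268, 331 and 302 CPM in PARP1-KO, and in none of the 5 treatments did the genotypes overlap. Further higher calls came once each. PSMC4, an ATPase, was higher with both agents (0.60 ± 0.12), at 102.1, 117.9, 124.5 and 124.4 CPM in WT and 188, 185, 173 and 164 CPM in PARP1-KO. PSMG4, a core chaperone, was also higher there (0.96 ± 0.23), at 9.21, 7.56, 18.6 and 13.2 CPM in WT and 23.3, 21.4, 22.4 and 26.1 CPM in PARP1-KO. PSMG2, another core chaperone, was higher with Tpc (0.65 ± 0.18), at 31.8, 33.1, 28.2 and 33.4 CPM in WT and 65.5, 39.4, 50.4 and 43.0 CPM in PARP1-KO. The PSMG2 call did not pass in 9 of 16 alternatives and the PSMG4 call in 5 of 16, while the PSMC4 call passed in all 16.

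No member was called between DMSO and no treatment. Against untreated cells, 0 of the 48 members and 0 genes overall (0%) passed in edgeR's quasi-likelihood test in either genotype. At an unadjusted p under 0.05 there were 3 members in WT and 0 in PARP1-KO, beside 3116 and 538 of all genes. DESeq2 called 0 members in both.

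In WT cells, the agents were compared with DMSO, and the members leaned downwards. With Tpc 0 of 48 were called beside 285 genes in all (0.985%), and 0 by DESeq2. At an unadjusted p under 0.05 there were 12 members (10 of them lower), beside 4672 of all genes. With OL9-119, 2 were lower (1.15% of all genes called), and with Tpc plus OL9-119 5 were lower and 1 higher (3.38% of all genes). At the same unadjusted p these agents had 25 members (24 lower) and 31 members (28 lower), beside 4930 and 6518 of all genes. The medians were -0.19, -0.26 and -0.30, with 36, 41 and 41 of 48 members below 0. Over the fits that left out 1 library the medians ranged from -0.25 to -0.06, from -0.31 to -0.20 and from -0.39 to -0.17, and the Tpc median of -0.06 was the one without the third WT library with DMSO. The 3 comparisons share the DMSO libraries, and each count depends on them. Leaving out the fourth WT library with DMSO gave 3, 6 and 12 calls, and leaving out the second gave 0 for OL9-119, while leaving out any other single library of those 2 groups gave 1 to 5. Fitting only the groups compared gave 0 for OL9-119 and 0 for the mixture. Over all genes that setting called 29 higher and 17 lower for OL9-119 and 92 higher and 44 lower for the mixture. With length and GC offsets the share of lower genes among all calls moved from 36.14% to 61.62% for Tpc, from 57.78% to 79.1% for OL9-119 and from 45.6% to 56.7% for the mixture. The addition of OL9-119 to Tpc, tested against Tpc alone, gave 0 member calls in edgeR's test (0.18% of all genes) and 0 by DESeq2. At an unadjusted p under 0.05 there were 9 members, beside 3111 of all genes.

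PSMA3, encoding α7, and PSMD10, the base chaperone gankyrin, were lower under both OL9-119 and the mixture. PSMA3 was at 189, 168.5, 190 and 146 CPM with DMSO, at 113.8, 144.7, 120.5 and 121.4 CPM with OL9-119, and at 113.9, 134, 114.6 and 111.5 CPM with both. The highest OL9-119 library came just under the lowest DMSO library. The log2 fold changes were -0.47 ± 0.11 (adjusted p = 0.00879) and -0.55 ± 0.11 (adjusted p = 0.0007307). PSMD10 was at 110.6, 127.2, 87.6 and 102.2 CPM with DMSO, at 71.1, 69.7, 73.6 and 64.8 CPM with OL9-119, and at 76.3, 65.6, 79.1 and 76.3 CPM with both. It did not overlap in either comparison (-0.62 ± 0.12, adjusted p = 0.0008331, and -0.53 ± 0.12, adjusted p = 0.003059). The PSMA3 call with OL9-119 missed the threshold in 10 of 18 alternatives and the PSMD10 call in 2. With the mixture, the PSMA3 call missed it in 1 of 18 and the PSMD10 call in 3.

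The remaining calls came with the mixture. PSMB1 was at 188, 200, 162.5 and 162 CPM (-0.65 ± 0.14, adjusted p = 0.001744), where the fourth DMSO library at 186 CPM lay inside that range. PSMB2 was at 191, 173, 191 and 197 CPM, below all DMSO libraries (-0.44 ± 0.10, adjusted p = 0.00314). PSMD1 was at 296, 251, 203 and 219 CPM, also below all DMSO libraries (-0.48 ± 0.11, adjusted p = 0.003017). PSMC3IP was at 85.9, 111, 83.9 and 74.4 CPM, higher by 0.63 ± 0.15 (adjusted p = 0.004534) with 1 DMSO library inside that range. Over 18 alternatives, the PSMC3IP call did not pass in 7, that of PSMB1 in 6, of PSMD1 in 4 and of PSMB2 in 3. By class, the medians with the mixture were -0.49 in the beta ring, -0.30 in the alpha ring, -0.28 in the ATPases and -0.31 in the non-ATPase subunits.

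In PARP1-KO cells no member was called under any agent. Tpc, OL9-119 and the mixture each gave 0 called members in edgeR's test and 0 by DESeq2, beside 0%, 0.00346% and 0% of all genes called. At an unadjusted p under 0.05 each gave 0 members, beside 1101, 671 and 834 of all genes. The medians were 0.01, -0.07 and -0.00. The beta ring stood at 807 ± 51.9 CPM per kb with DMSO and at 792 ± 47.3, 750.5 ± 37.5 and 794 ± 28.7 CPM per kb with Tpc, OL9-119 and both. In WT the same sum was 1226 ± 275 CPM per kb with DMSO, 1037 CPM per kb with Tpc (961 to 1182 over the 4 libraries), 935 ± 88.1 CPM per kb with OL9-119 and 874 ± 47.5 CPM per kb with both.

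**Figure D4:**
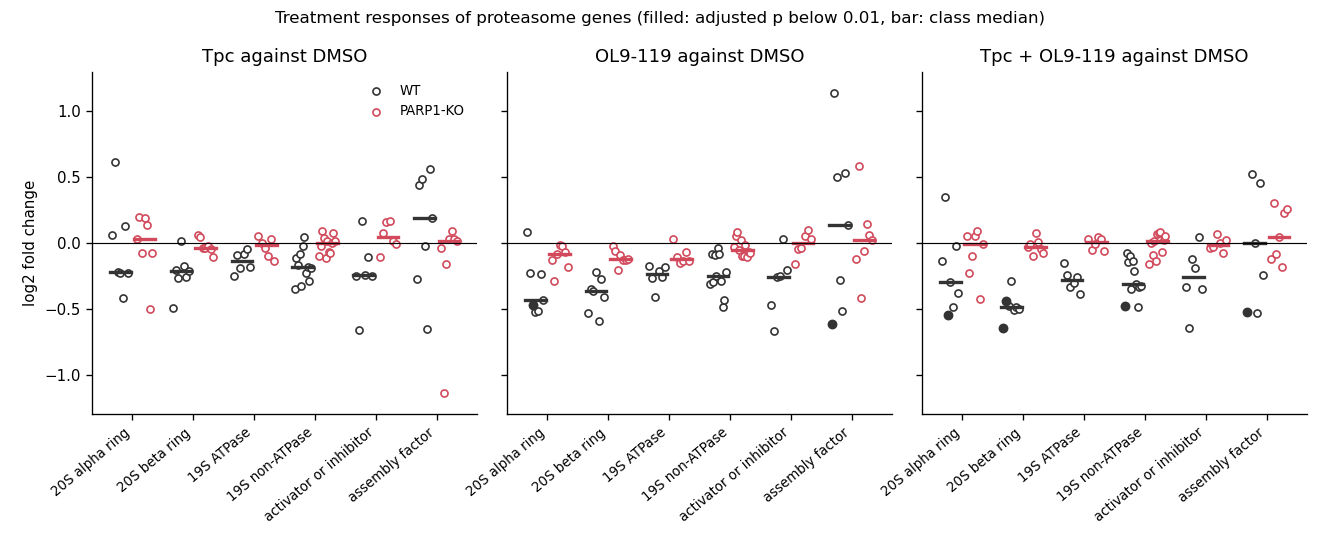
Log2 fold change of the members against DMSO under each agent in WT and in PARP1-KO cells, by class, each point a gene, filled where its adjusted p was below 0.01, and each bar a class median. In WT the beta ring medians are -0.21, -0.37 and -0.49, and in PARP1-KO they are -0.04, -0.12 and -0.03, a difference that was not called for any member. PSMC3IP and the inducible subunits are not drawn, and 1 value, PSMD5 with the mixture in WT, lies outside the axis.

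Whether the response differed between the genotypes was tested as an interaction. None of the 48 members passed, for OL9-119 (0.1% of all genes called), Tpc (0.173%, at unequal doses) or the mixture (0.432%, also at unequal Tpc doses), in edgeR's test or in DESeq2. At an unadjusted p under 0.05 there were 11, 7 and 17 members, beside 2421, 2510 and 3751 of all 28922 genes tested. The member medians of the PARP1-KO minus WT response were 0.22, 0.14 and 0.32, beside all-gene medians of -0.09, -0.07 and -0.01. With 1 library left out they ranged from 0.10 to 0.29, from 0.06 to 0.21 and from 0.20 to 0.39, and without the 3 libraries of high top-100 share they were 0.11, 0.04 and 0.21. The smallest adjusted p of a member was 0.1473, for PSMA5 with the mixture (0.58 ± 0.19). A response present in one genotype and not called in the other is therefore not shown to differ for any single member.

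Of 24 genes of the pathway outside the symbol prefixes, 7 were lower and 3 higher in PARP1-KO against WT cells with DMSO. Of all genes tested, 12.4% were called and 5.75% were called lower. All 4 further subunits and assembly factors were lower, namely PAAF1 (-1.10), an ATPase-binding factor, POMP (-0.68), the maturation chaperone of the core, SEM1 (-0.67), a lid subunit, and ADRM1 (-0.53), a ubiquitin receptor. Among the 6 proteasome-bound proteins only UCHL5, a deubiquitinase, was called (0.60). Of the 7 substrate delivery genes, VCP, the unfolding ATPase, was lower (-0.87) and ZFAND5 was higher (0.51). NFE2L1, DDI2 and NGLY1, which control proteasome gene transcription, were not called, and AKIRIN2, the nuclear import factor, was higher (0.79). The ubiquitin gene UBB (-0.63) and the ubiquitin-activating enzyme gene UBA1 (-0.33) were lower. In WT, POMP was also lower with OL9-119 (-0.96 ± 0.16) and with the mixture (-0.93 ± 0.16). SEM1 (-0.70), VCP (-0.48) and UBB (-0.47) were lower and ZFAND5 (0.51) was higher with the mixture. With POMP, that made 4 of the 24 lower and 1 higher, beside 3.38% of all genes called. IRF1 (0.86), read with the list of antigen presentation genes, was also higher with the mixture, the 1 called of the 12 genes in that list.

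Some measures moved with the member levels, and their part in the results was not tested. Among the tested members, PSMA1, PSMC3 and PSMD13 lie on chromosome 11. There the median log2 fold change of 607 genes with at least 10 CPM was -0.50 in PARP1-KO against WT with DMSO, and 500 lay below 0. Over the 45 other tested members, 19 were lower and the median was -0.35. The chromosomes of the pathway genes outside the prefixes, PAAF1 among them, were not compared in this way. The summed member level also varied with library composition among the WT libraries with DMSO. It was 7676, 7045, 8961 and 6521 CPM in the 4 WT libraries, in which the 100 most abundant genes took 21.0%, 20.5%, 24.5% and 18.6% of the counts and 19812, 17394, 16029 and 21101 genes were detected. The library with the fewest genes had the highest member sum.  Leaving out the 3 libraries with a top-100 share above 22%, a choice made after the data were seen, left 21 member calls with DMSO (2 higher and 19 lower) and 12 untreated (2 higher and 10 lower).

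**Figure D5:**
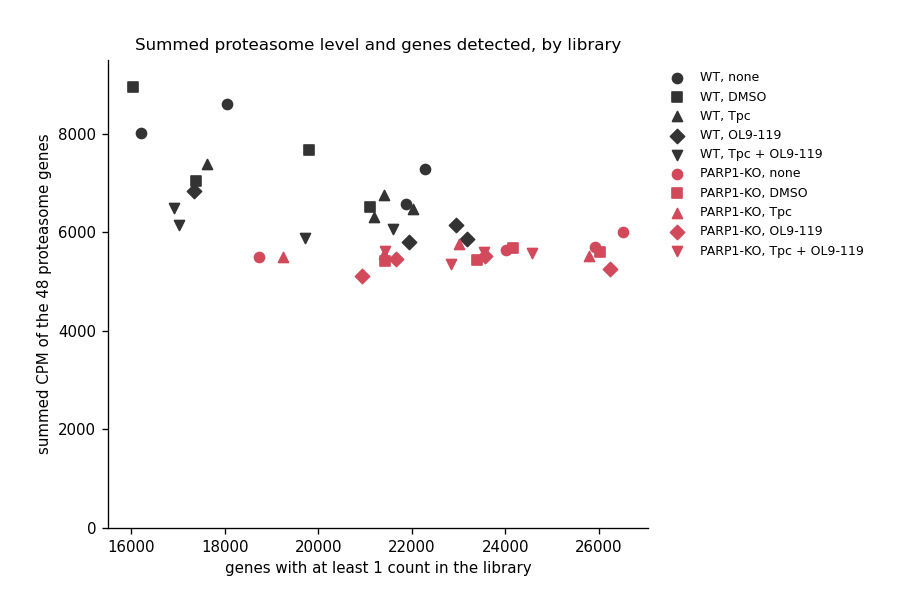
Summed CPM of the tested members against the number of genes detected in each of the 40 libraries, by genotype. WT libraries run from 5807 to 8961 CPM and PARP1-KO libraries from 5122 to 6015 CPM. The WT library with the fewest genes, 16029, has the highest sum, 8961 CPM, while those with 16913 and 17023 genes have sums of 6492 and 6143 CPM.

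Over all treatments the summed member level was highest in untreated WT cells, at 7627 ± 882 CPM, and was 7551 ± 1052 CPM with DMSO, 6735 ± 478 CPM with Tpc, 6167 ± 471 CPM with OL9-119 and 6145 ± 256 CPM with both. The library ranges of neighbouring groups in this order overlapped. PARP1-KO groups ran from 5340 ± 186 CPM with OL9-119 to 5718 ± 216 CPM untreated, with every library below the mean of each WT group.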

How the data were processed

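Poly(A)-selected RNA of the 40 libraries was prepared with a directional kit and sequenced by the authors, who deposited raw counts per Ensembl gene for every library. Per the paper's methods the reads were aligned and counted with STAR. The submitters' processing notes name STAR 2.7.8, FastQC 0.11.9 and Picard 2.26.6, with the hg38 build. Which strand column of the count output was kept is not given in the sources used here. Symbols were taken from GENCODE 44, which matched 57754 of 58395 identifiers.

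Genes whose counts over the 40 libraries added up to 10 or more were kept (28922 genes), and these counts were scaled by TMM and fitted with edgeR 4.0.16 (quasi-likelihood test, 1 model over the 10 groups without covariates, R 4.3.3), and p-values were adjusted by the Benjamini-Hochberg method over all genes tested. A gene was called at an adjusted p under 0.01. Standard errors were obtained from each fold change and its F statistic (log2 fold change over root F). CPM are read counts scaled to library size by TMM, and CPM per kb divides them by the length of the canonical transcript.

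The members and gene lists were chosen with earlier results of these data known. Every member could be named, and full values were given for the 2 most and the least changed called members of each class with DMSO, the members called under a treatment, the catalytic subunits with their inducible counterparts, and members that went against their class. Alternatives were RLE normalization, no filter, a stricter expression filter (filterByExpr), replicate number or library prefix as a block, length and GC offsets, untreated cells as comparator, only the groups compared, DESeq2 1.42.0, and each library left out in turn. One alternative, without the 3 libraries of highest top-100 share, was added after seeing the data. The scripts were tested on simulated data. Replicate numbers did not pair the libraries. Part of the antigen presentation list is not reported here.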

Additional observations from a re-analysis of the deposited data

Results flagged for a closer look

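Among 230 groups of 4 libraries of the 23 named members, 15 held a library far from the other 3 by Dixon's criterion at the 95% level, and chance gives about 1 in 20. Values are CPM, with the range of the other 3 libraries.

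The second WT library with Tpc was high for PSMA4 (566.4, others 374.7 to 395.1), PSMB7 (289.4, others 169.1 to 183.9) and PSMD7 (280.3, others 193.6 to 202). The third WT library with Tpc was low for PSMC2 (235.8, others 258.8 to 262.3). With OL9-119 in WT, PSMA4 was high in the second library (417.5, others 321.2 to 335.2) and PSMD3 in the first (336.4, others 285.3 to 291.4). With the mixture in WT, the first library was low for PSMA1 (40.61, others 52.79 to 54.18) and high for PSMD12 (222.4, others 179.3 to 182.2), and the second was high for PSMA3 (134.2, others 111.5 to 114.6).

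In PARP1-KO cells with DMSO the third library was low for PSMB2 (167.2, others 202.1 to 209.1) and high for PSMD12 (336.5, others 261.7 to 271.6), and the second was high for PSMB8 (0.6536, others 0.07518 to 0.1026). With the mixture in PARP1-KO, the fourth library was low for PSMA1 (21.57, others 29.76 to 30) and held no PSMB8 count (0, others 0.3082 to 0.3716), and the third was high for PSMD1 (206.9, others 157.2 to 164.5). Without the third PARP1-KO library with DMSO, neither PSMB2 nor PSMD12 passed the threshold against WT cells with DMSO. No member differed between the genotypes in its response to an agent at an adjusted p under 0.01.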

How the results depend on the processing

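The number of members called in PARP1-KO against WT cells with DMSO was 24. It became 12 when only the groups compared were fitted and ranged from 14 (without the third PARP1-KO library) to 25 over the libraries left out in turn. For untreated cells the 20 calls became 13 with only the groups compared, 12 without the libraries of high top-100 share (an alternative chosen after seeing the data), and 14 to 22 with 1 library left out. With OL9-119 the 13 calls ranged from 8 to 13, with Tpc from 10 to 14, and with the mixture, where 11 were called, from 8 to 10. In WT, Tpc against DMSO gave 0 calls, 1 without a filter, 1 without the libraries of high top-100 share, and 0 to 3 with 1 library left out. OL9-119 against DMSO gave 2 calls, 5 without a filter, 4 with untreated cells as comparator, 0 with only the groups compared, 4 by DESeq2, 1 without the libraries of high top-100 share, and 0 to 6 with 1 library left out. The mixture against DMSO gave 6 calls, 0 with only the groups compared, and 4 to 12 with 1 library left out. Between the genotypes, fitting only the groups compared called more members with Tpc (2 higher and 16 lower) and with OL9-119 (2 higher and 15 lower). All-gene calls also rose, with Tpc from 1207 higher and 1256 lower to 1631 and 1820 of 22214 genes tested. With OL9-119 they rose from 1429 and 1398 to 2298 and 1930 of 22428. With DMSO, where fewer members were called in that setting, all-gene calls fell from 1930 higher and 1662 lower to 761 and 875. That setting also lowers the residual degrees of freedom. The cause of the changes was not tested. PSMD12 in PARP1-KO against WT cells with DMSO turned to -0.0665 with length and GC offsets.

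Of the 1187 values of the 71 named calls under alternatives, 1021 kept direction and threshold, 165 kept the direction only and 1 was reversed. Adding the replicate number as a block left 24 calls with DMSO and changed none of the named calls. Over genes with a mean above 1 CPM, the deviations of same-numbered libraries correlated at -0.11 to 0.02 between the genotypes with DMSO. Within genotypes the correlations reached 0.36 (DMSO against untreated, WT, from 0.01) and 0.33 (OL9-119 against DMSO, PARP1-KO, from -0.03). In no comparison were all 4 above 0.1, so the numbers were not taken as pairs. PSMB8, PSMB9, PSMB10, PSMA6 and PSMD5 had few counts, which limits the precision of their values.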
